A study of Mus musculus with 12 samples.

Results

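The genes described here are 8 genes of cholesterol and mevalonate synthesis and its control: Hmgcs1, Idi1, Fdps, Fdft1, Sqle, Lss, Insig1 and Srebf2. They were taken by symbol from a gene table of 12 mouse RNA-seq libraries of regulatory T cells (Tregs). All 8 were among the 23361 genes of the table, and all 8 passed the filter on low values (3 or more libraries with 10 rescaled counts or above), which left 10868 genes for testing. The 4 groups, of 3 libraries each, were Lag3-deficient islet Tregs, Wt islet Tregs, Lag3-deficient Tregs from non-draining lymph nodes (NDL) and Wt NDL Tregs, all from an autoimmune diabetes model. Lag3 is an inhibitory receptor of T cells, and the series asked what it restrains in Tregs at the site of disease and away from it. The labels called the material cytoplasmic RNA. The sources used here do not give the mouse strain, the age, the sort markers, the Lag3 allele or the cells in which it was deleted. They also do not say whether each library is from its own mouse, so p-values cover the spread between libraries alone, which may be technical. The column headers number the libraries of a group 1, 2 and again 1, and these are called 1a, 2 and 1b here.

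The mevalonate pathway builds isoprenoids and sterols from acetyl-CoA. HMG-CoA synthase (Hmgcs1) stands at its entry, isopentenyl diphosphate isomerase (Idi1) interconverts the isoprene units, and farnesyl diphosphate synthase (Fdps) joins them. Squalene synthase (Fdft1), squalene epoxidase (Sqle) and lanosterol synthase (Lss) commit them to sterols. The pathway is run by SREBP2, the transcription factor encoded by Srebf2, which is held in the endoplasmic reticulum by INSIG proteins when sterols are plentiful and otherwise travels to the nucleus and switches on the enzymes, Insig1 and its own gene together. In mouse Tregs, lipid and mevalonate synthesis downstream of mTORC1 is known to serve their proliferation and suppressive function.

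The promoters of 4 of the genes are printed because Hmgcs1, Idi1 and Insig1 had the most closely matched levels across libraries and Srebf2 is the factor's own gene. RefSeq promoters were found for 5 of the 8 genes (Hmgcs1, Idi1, Insig1, Lss and Srebf2). Each sequence is the 250 bases before the RefSeq start on the plus strand of GRCm38.p6, at chr13:119690101-119690350 for Hmgcs1, chr13:8885356-8885605 for Idi1, chr5:28071162-28071411 for Insig1 and chr15:82147019-82147268 for Srebf2. Capitals mark matches to a sterol regulatory element (SRE, the SREBP2 site, searched as TCACNCCAC) and to the NF-Y box CCAAT, a common partner site of SREBPs, each searched on both strands, so that ATTGG is a CCAAT box read from the other strand.
Hmgcs1: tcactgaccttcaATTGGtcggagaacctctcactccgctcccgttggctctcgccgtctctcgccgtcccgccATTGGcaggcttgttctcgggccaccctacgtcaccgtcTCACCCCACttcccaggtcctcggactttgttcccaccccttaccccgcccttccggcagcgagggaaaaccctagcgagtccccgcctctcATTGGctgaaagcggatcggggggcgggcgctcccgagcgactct
Idi1: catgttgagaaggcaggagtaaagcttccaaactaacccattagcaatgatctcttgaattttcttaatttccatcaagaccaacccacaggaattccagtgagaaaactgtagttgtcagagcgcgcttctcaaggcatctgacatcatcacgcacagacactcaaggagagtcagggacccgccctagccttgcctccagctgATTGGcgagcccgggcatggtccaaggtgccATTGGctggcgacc
Insig1: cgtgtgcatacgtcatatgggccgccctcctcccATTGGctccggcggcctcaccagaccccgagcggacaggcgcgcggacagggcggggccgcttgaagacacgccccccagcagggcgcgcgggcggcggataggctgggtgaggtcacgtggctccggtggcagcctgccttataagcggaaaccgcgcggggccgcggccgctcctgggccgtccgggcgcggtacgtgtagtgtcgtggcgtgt
Srebf2: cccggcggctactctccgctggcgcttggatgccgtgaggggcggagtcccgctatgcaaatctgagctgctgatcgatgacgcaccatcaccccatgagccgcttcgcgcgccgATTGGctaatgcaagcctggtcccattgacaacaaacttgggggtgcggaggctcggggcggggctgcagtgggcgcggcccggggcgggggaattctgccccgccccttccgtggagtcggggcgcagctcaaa
Hmgcs1 held 1 SRE match, from -137 to -129, with 3 NF-Y boxes, whereas Idi1 held 2 NF-Y boxes, Insig1 1 and Srebf2 1, each with no match to the SRE letters in this window. Among 32851 RefSeq promoters of the same length, 1.05% held the SRE letters and 33.8% an NF-Y box. The GC box GGGCGG, held by 32.7% of promoters, was found 2 times in Hmgcs1, 1 time in Idi1, 3 times in Insig1 and 4 times in Srebf2, and the E-box CACGTG, held by 6.02%, was found 1 time in Insig1 and in none of the other 3. No match of one motif overlapped a match of another. The matches are a description of letters and not of binding.

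Values below are CPM, worked out with library factors of the TMM method from the deposited rescaled counts. Those counts summed to between 15232498 and 15370098 per library after the authors' scaling. The original depth is not known from them. Spearman correlation between libraries of 1 group, over tested genes, lay between 0.661 and 0.882, and between 399 and 927 of the tested genes were at 0 in a library. Libraries stood apart in this respect: Lag3-deficient islet library 2 had 927 tested genes at 0, Lag3-deficient NDL library 1b 789, Wt NDL library 1b 761 and Wt NDL library 2 647. In 3 libraries some whole numbers between 1 and 60 were used by no gene (28 of them in Lag3-deficient islet library 2, 14 in Wt NDL library 2 and 5 in Lag3-deficient NDL library 1b), and results are also given without those 3. The 4 libraries 1b also shared a higher level of the ribosomal RNA gene Rn45s, 1.26 to 1.68% of the total against 0.149 to 0.571% in the other 8, and results that move without them are given below. As a check of the labels, Lag3 itself had 1, 0 and 0 rescaled counts in Lag3-deficient islets (libraries 1a, 2 and 1b) and 40, 48 and 120 in the Wt islet libraries, with 1, 0 and 3 in the Lag3-deficient NDL libraries and 2, 5 and 6 in the Wt NDL libraries, so in NDL the check rests on few reads. The summed level of 8 Treg markers, Foxp3 among them, was 3600 to 5896 CPM in Lag3-deficient islet, 4198 to 4948 in Wt islet, 2393 to 2741 for Lag3-deficient NDL, and 2844 to 3310 CPM for Wt NDL libraries, and none of the 8 was at 0 in all libraries of a tissue.

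Hmgcs1 (chromosome 13, 119690379 to 119708260, plus strand, GRCm38 with GENCODE annotation, as for the genes below), which makes HMG-CoA, measured 47.3, 3.08 and 47.4 CPM in Lag3-deficient islets (1a, 2 and 1b, in that order throughout) and 86.3, 141 and 137 CPM in Wt islet libraries. Hmgcs1 in NDL measured 37.4, 60.2 and 0.299 CPM in Lag3-deficient and 64.7, 3.63 and 1.38 CPM in Wt libraries. The 3 Wt islet libraries were the highest of all 12, and the remaining groups each held at least 1 library at or under 3.63 CPM. Hmgcs1 shares 557 exon bases with the antisense gene Gm48342.

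Idi1 (chromosome 13, 8885501 to 8892451, plus strand), which interconverts the isoprene building blocks, measured 121, 49.9 and 100.2 CPM in Lag3-deficient islet and 133, 161 and 144 CPM in Wt islet libraries. Idi1 in NDL measured 36.9, 40.9 and 0.299 CPM in Lag3-deficient and 45.02, 1.51 and 36.2 CPM in Wt libraries. Every islet library was above every NDL library. Fdps (chromosome 3, 89093588 to 89101959, minus strand), which makes farnesyl diphosphate, the branch point between sterols and protein prenylation, measured 49.97, 133 and 60.9 CPM in Lag3-deficient islet and 78.7, 45.8 and 34.6 CPM in Wt islet libraries. Fdps in NDL measured 40.9, 86.4 and 24.5 CPM in Lag3-deficient and 67.9, 9.88 and 18.5 CPM in Wt libraries. All 4 groups overlapped for Fdps. Reads of both genes may be shared with near copies: Fdps had 5 processed pseudogenes and the overlapping gene Gm43738, and Idi1 had 3 processed pseudogenes, 1 of them, Gm13502, identical over 684 bases, so their levels are uncertain to that extent.

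Fdft1 (chromosome 14, 63145150 to 63179578, minus strand), which joins farnesyl units into squalene, measured 47.3, 6.61 and 28.0 CPM in Lag3-deficient islet and 45.6, 52.9 and 42.0 CPM in Wt islet libraries. Fdft1 in NDL measured 36.0, 12.4 and 124 CPM in Lag3-deficient and 35.5, 70.6 and 81.7 CPM in Wt libraries. Its highest library was the Lag3-deficient NDL library 1b in which Hmgcs1, Idi1 and Insig1 were lowest. Fdft1 has a processed pseudogene, Gm6781, alike at 97.4% over 1249 bases. Fdft1 also shares 774 exon bases with Ctsb on the opposite strand, whether counting used the strand is not given in the sources used here, and reads of both cannot be told apart in that stretch. Ctsb, a lysosomal protease, measured 157, 179 and 290 CPM in Lag3-deficient islet, 458, 224 and 156 in Wt islet, 163, 98.5 and 178 in Lag3-deficient NDL and 158, 122 and 137 CPM in Wt NDL libraries, an order that differed from that of Fdft1.

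Sqle (chromosome 15, 59315077 to 59331192, plus strand), the epoxidase that is a second control point of sterol synthesis, measured 1.21, 134 and 43.8 CPM in Lag3-deficient islet and 19.3, 6.60 and 11.1 CPM in Wt islet libraries. Sqle in NDL measured 11.03, 19.3 and 68.7 CPM in Lag3-deficient and 20.1, 2.48 and 37.8 CPM in Wt libraries. Its lowest and highest libraries of all 12 both belonged to the Lag3-deficient islet group. Lss (chromosome 10, 76531588 to 76557138, plus strand), which closes the sterol ring, was close to the detection limit, at 0.0754, 0.165 and 2.84 CPM in Lag3-deficient islet, 0.483, 5.80 and 0.542 CPM in Wt islet, 2.59, 12.6 and 0.225 CPM in Lag3-deficient NDL, and 0.0614, 0.182 and 0 CPM in Wt NDL libraries. The Wt NDL libraries were at or under 3 rescaled counts for Lss, so no ratio against them is given. Lss also shares 381 exon bases with the antisense gene 4930483K19Rik.

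Insig1 (chromosome 5, 28071363 to 28078662, plus strand), which retains the SREBP complex and is itself an SREBP2 target, measured 70.3, 22.2 and 29.97 CPM in Lag3-deficient islet and 69.4, 64.1 and 44.6 CPM in Wt islet libraries. Insig1 in NDL measured 31.3, 11.2 and 0.0748 CPM in Lag3-deficient and 29.2, 3.82 and 20.6 CPM in Wt libraries. The Wt islet libraries were all above the NDL libraries of both genotypes, and the Lag3-deficient islet libraries overlapped the NDL libraries. Srebf2 (chromosome 15, 82147181 to 82205379, plus strand), which encodes SREBP2, measured 36.1, 0.330 and 6.87 CPM in Lag3-deficient islet and 20.2, 1.91 and 7.59 CPM in Wt islet libraries. Srebf2 in NDL measured 45.9, 17.6 and 13.8 CPM in Lag3-deficient and 35.1, 20.4 and 1.01 CPM in Wt libraries. All 4 groups overlapped for Srebf2, and in each of them 1a was the highest library.

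**Figure D1:**
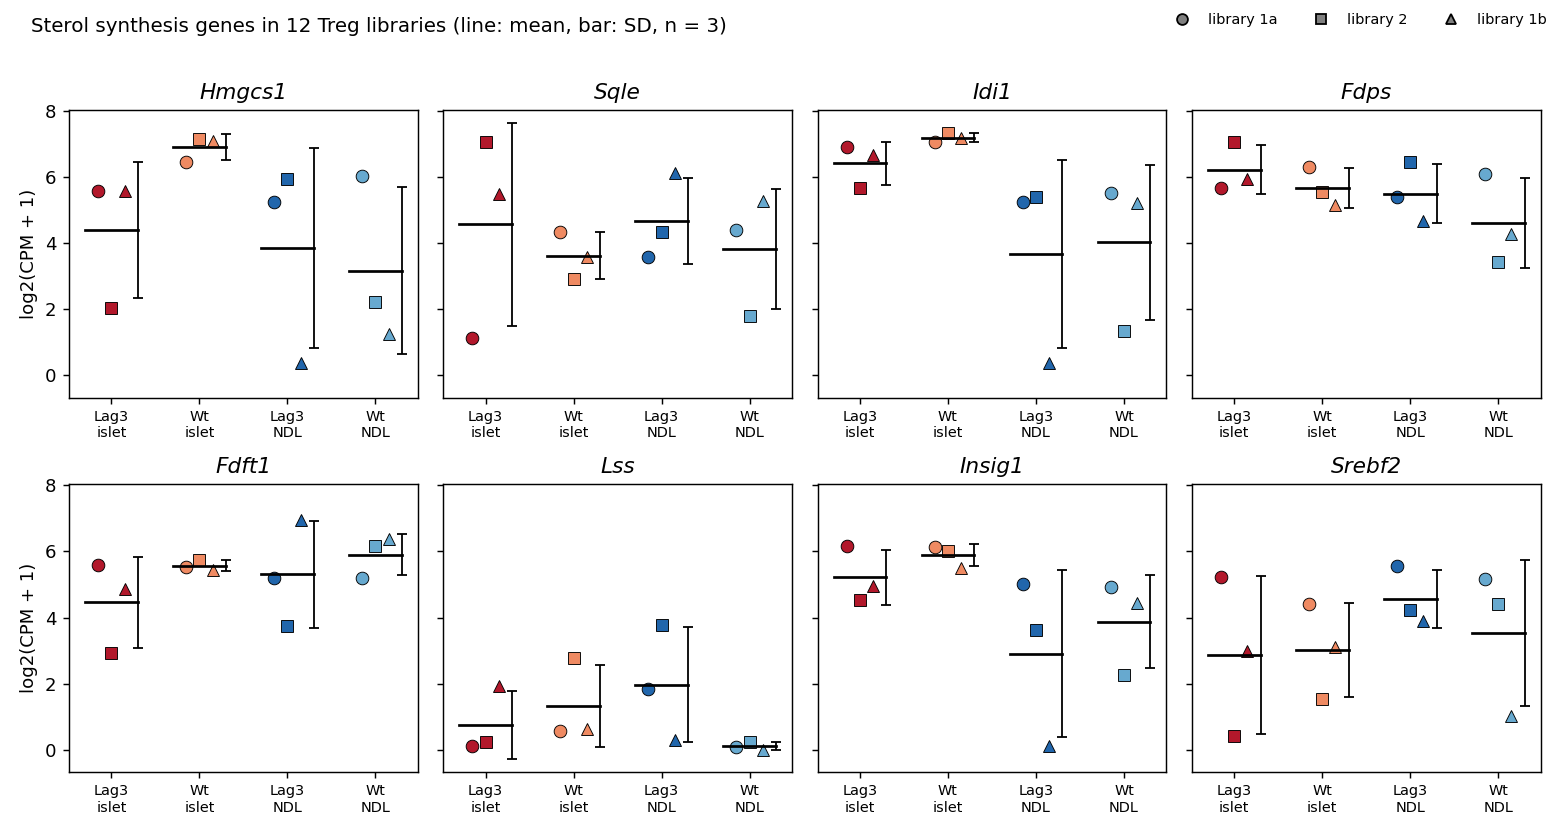
Level of each of the 8 genes in each of the 12 libraries (y axis, log2(CPM + 1)), by group; points are libraries, lines are means and bars SDs (n = 3). All 6 islet libraries lie above all 6 NDL libraries for Idi1 (49.9 to 161 CPM against 0.299 to 45.02 CPM), while Sqle spans 1.21 to 134 CPM within the Lag3-deficient islet group.

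Per kilobase of exon, so that genes can be compared, the order of mean levels in Wt islet libraries was Idi1 at 41.7 ± 3.92 CPM per kb, Hmgcs1 at 26.4 ± 6.62, Insig1 at 19.2 ± 4.23, Fdps at 12.6 ± 5.46, Fdft1 at 11.1 ± 1.32, Sqle at 2.22 ± 1.16, Srebf2 at 1.38 ± 1.31 and Lss at 0.211 ± 0.283 CPM per kb (SD, n = 3). In that order Idi1 stood clear of Hmgcs1 and Fdft1 stood clear of Sqle, while the libraries of every other neighbouring pair overlapped. In Wt NDL libraries the order was led by Fdft1 at 14.8 ± 5.71 CPM per kb, with Idi1 at 7.87 ± 6.56, Fdps at 7.63 ± 7.45, Insig1 at 5.79 ± 4.18 and Hmgcs1 at 5.06 ± 7.83 CPM per kb (SD, n = 3), all with overlapping libraries. Sqle at 3.63 ± 3.19, Srebf2 at 2.62 ± 2.38 and Lss at 0.00751 ± 0.00857 CPM per kb were again the lowest (SD, n = 3). Lengths are those of all exons of a gene joined, which need not be the transcript that the cells used.

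Against the spread of other genes, 5 of the 8 genes varied within groups more than the median gene did. The residual SD on the log2(CPM + 1) scale was 2.24 for Hmgcs1, higher than for 95.3% of tested genes, 1.93 for Sqle (86.2%), 1.87 for Idi1 (83.8%), 1.84 for Srebf2 (82%) and 1.52 for Insig1 (64.9%), against a median of 1.26 over tested genes. Fdps had 0.94, higher than 32.3% of tested genes, and was the steadiest of the 8. Single libraries held low values of several of the genes at once. In Lag3-deficient NDL library 1b, 3 of the 7 genes other than Lss (Hmgcs1, Idi1 and Insig1) were under 1 CPM, where 13.9% of 3226 tested genes of like average level were. In Wt NDL library 2, 4 of the 7 (Hmgcs1, Sqle, Idi1 and Insig1) were under 5 CPM, where 14.7% of genes of like level were. In that library 0 of the 7 were under 1 CPM (4.99% of genes of like level). Lag3-deficient islet library 2 had 1 of the 7 under 1 CPM (17.5% of genes of like level) and 2 under 5 CPM (34.3%), so the 7 were not low there beyond other genes. Fewer cells expressing a gene and less RNA per cell cannot be told apart in these bulk libraries. The libraries named here are also the 3 that skip whole numbers. Lag3-deficient NDL library 1b skips 5, Wt NDL library 2 skips 14 and Lag3-deficient islet library 2 skips 28, with 789, 647 and 927 tested genes at 0. The part of library depth in the low values was not tested.

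Islet Tregs were compared with NDL Tregs to ask how the pathway stood at the site of disease. Idi1 and Insig1 averaged higher in islet than in NDL Tregs of both genotypes, with Idi1 the clearest, and Hmgcs1 did so in Wt. In Lag3-deficient Tregs Hmgcs1 averaged 32.6 ± 25.5 CPM in islets and 32.6 ± 30.2 CPM in NDL (SD, n = 3). No gene of the 8 passed the test, which was limma on log2(CPM + 1) with Benjamini-Hochberg adjustment over all 10868 genes and a threshold of 0.05. Averaged over both genotypes 0 of 8 passed, where 0.92% of all tested genes did. At an unadjusted p under 0.05 there were 2 of 8 (Idi1 and Insig1), against 11.3% of tested genes. Within Wt 0 of 8 passed (0.184% of tested genes) and 2 of 8, Hmgcs1 and Idi1, were under the unadjusted threshold (7.53% of tested genes), and within Lag3-deficient Tregs 0 of 8 passed (0.12%) and 1 of 8, Idi1, was under it (8.71%). With voom weights in limma the counts of genes passing were also 0 of 8 in all 3 comparisons.

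Idi1 averaged 90.2 ± 36.4 CPM in Lag3-deficient islet and 146 ± 13.8 CPM in Wt islet Tregs, against 26.0 ± 22.4 CPM in Lag3-deficient NDL and 27.6 ± 23.0 CPM in Wt NDL Tregs (SD, n = 3). The log2 difference between islet and NDL was 2.96 ± 0.85 (SE; limma unadjusted p = 0.00235, adjusted p = 0.123), and all 6 islet libraries lay above all 6 NDL libraries, as for 1.32% of tested genes (1.8% in either direction). The difference was 2.75 ± 1.197 within Lag3-deficient Tregs (limma adjusted p = 0.527) and 3.17 ± 1.197 within Wt Tregs (limma adjusted p = 0.477). Over 22 alternative settings it stayed between 1.57 and 3.39 with adjusted p from 0.0715 to 0.471. The lowest value, 1.57, came without the 3 libraries that skip whole numbers, 2 of which had the lowest Idi1 values, and there the limma adjusted p was 0.0836. Thus the size of the difference moved by over 1.5 times with the libraries at the bottom of the range.

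Hmgcs1 differed by 2.14 ± 1.03 on the log2 scale between islet and NDL averaged over genotypes (SE; limma adjusted p = 0.445), made up of 0.55 ± 1.46 within Lag3-deficient Tregs, a value that turned negative in 5 of 23 alternatives (down to -1.78), and 3.73 ± 1.46 within Wt Tregs (limma unadjusted p = 0.0188, adjusted p = 0.508). The averaged difference of Hmgcs1 was 1.27 without Lag3-deficient NDL library 1b and 0.42 without the 4 libraries 1b, which hold more Rn45s, whereas it was 1.55 without the 3 libraries that skip whole numbers. Insig1 differed by 2.16 ± 0.85 averaged over genotypes (SE; limma adjusted p = 0.313), with 2.31 ± 1.196 within Lag3-deficient and 2.02 ± 1.196 within Wt Tregs, and by 1.15 without the 3 libraries that skip whole numbers. In Wt, 4 of 8 genes (Hmgcs1, Idi1, Insig1 and Lss) had all islet libraries above all NDL libraries, against 8.37% of tested genes in that direction and 14% in either. In Lag3-deficient Tregs 1 of 8 did, Idi1, against 5.44% in that direction and 12.7% in either.

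For the other 5 genes, again averaged over genotypes, the log2 difference between islet and NDL was 0.90 ± 0.58 for Fdps, -0.59 ± 0.64 for Fdft1, -0.16 ± 0.99 for Sqle, 0.00 ± 0.65 for Lss and -1.10 ± 1.05 for Srebf2 (SE, each with a limma adjusted p above the threshold). The sum of the 8 genes was 373, 350 and 320 CPM in Lag3-deficient islet, 454, 479 and 422 CPM in Wt islet, 242, 261 and 232 CPM in Lag3-deficient NDL and 298, 113 and 197 CPM in Wt NDL libraries. The islet sums all lay above the NDL sums, but they include Idi1, the only 1 of the 8 genes whose tissues did not overlap. The sums therefore do not show that the 8 genes were higher as a set. Of the 8 differences 5 were positive, with Lss at 0.00, and 3 negative, where 47.9% of all tested genes were positive. The median log2 difference of the 8 genes was 0.45 averaged over genotypes, where the median of all tested genes was -0.04.

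Other measurements moved with the tissue as well. All 28 genes of a proliferation list had a positive islet-minus-NDL difference, with a median of 1.88, and 5 passed the limma test averaged over genotypes: Top2a (2.25 ± 0.38, adjusted p = 0.00522), Stmn1 (1.91 ± 0.39, adjusted p = 0.0165), Ccna2 (2.35 ± 0.56, adjusted p = 0.0486), Rrm2 (2.61 ± 0.51, adjusted p = 0.014) and Cenpe (3.82 ± 0.77, adjusted p = 0.0165). The summed proliferation level was 2681 to 4324 CPM in Lag3-deficient islet, 3701 to 5540 in Wt islet, 942 to 1734 for Lag3-deficient NDL, and 1145 to 1809 CPM for Wt NDL libraries. Ctla4, an inhibitory receptor of Tregs, was also higher in islet Tregs (log2 difference 2.66 ± 0.24, limma adjusted p = 2.03e-06). Ctla4 was the only 1 of the 8 Treg markers that passed. Of those 8, 4 differences were positive and 4 negative, with a median of -0.09, and Foxp3 differed by -0.51 ± 0.28 (SE; limma adjusted p = 0.518). Pancreatic exocrine markers summed to 33.9 to 610 CPM in Lag3-deficient islet, 177 to 3091 in Wt islet, 0.0748 to 2.83 for Lag3-deficient NDL, and 0.217 to 4.79 CPM for Wt NDL libraries. Of 15 exocrine genes 12 were tested, and 9 were at 0 in all NDL libraries. All 12 tested had a positive islet-minus-NDL difference, and 7 passed the limma test (Prss2, Cela2a, Ctrb1, Cpa1, Pnlip, Clps and Try4, with log2 differences from 3.76 to 6.39). Tested exocrine genes at 0 in all NDL libraries passed the filter on low values only through islet libraries. Their positive sign was thus fixed in advance and is not a result. Endocrine markers summed to 2.53 to 38.4 CPM in Lag3-deficient islet, 10.2 to 234 in Wt islet, 0.0479 to 0.374 for Lag3-deficient NDL, and 0 to 0.848 CPM for Wt NDL libraries, 2 of 12 were tested, and Ins2, Ppy and Iapp were at 0 in all NDL libraries. B cell markers summed to 175 to 360 CPM in Lag3-deficient islet, 309 to 620 in Wt islet, 98.9 to 191 for Lag3-deficient NDL, and 54.4 to 148 CPM for Wt NDL libraries, with Pax5 at 0 in all 12. Of 7 tested B cell markers 5 had a positive islet-minus-NDL difference, and Cd74 was the only one that passed the test. CD8 and NK markers summed to 67.6 to 442 CPM in Lag3-deficient islet, 220 to 406 in Wt islet, 55.0 to 115 for Lag3-deficient NDL, and 19.6 to 29.5 CPM for Wt NDL libraries. Of 3 tested CD8 and NK markers 2 had a positive difference, and Nkg7 was the only one that passed the test. Myeloid markers (2 of 11 tested, C1qb at 0 in all NDL libraries) summed to 1.39 to 56.8 CPM in Lag3-deficient islet, 48.3 to 129 in Wt islet, 0.192 to 37.7 for Lag3-deficient NDL, and 0.290 to 15.8 CPM for Wt NDL libraries. Stroma markers (3 of 10 tested, Krt19 at 0 in all NDL libraries) summed to 16.5 to 237 CPM in Lag3-deficient islet, 29.3 to 31.8 in Wt islet, 31.0 to 56.5 for Lag3-deficient NDL, and 6.81 to 114 CPM for Wt NDL libraries. The part of proliferation or of other cells in the levels of Idi1, Insig1 and Hmgcs1 was not tested.

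Lag3-deficient islet Tregs were compared with Wt islet Tregs for the question in the title of the series. The entry enzyme Hmgcs1 and the isomerase Idi1 had lower values in every Lag3-deficient islet library than in any Wt islet library, but none of the 8 genes passed the limma test, as no gene of the whole table did (0%). At an unadjusted p under 0.05 there were 0 of 8, where 5.74% of tested genes were, and with voom weights 0 of 8 passed. Hmgcs1 averaged 32.6 ± 25.5 CPM in Lag3-deficient islet Tregs and 121 ± 30.4 CPM in Wt islet Tregs (SD, n = 3), a log2 difference of -2.50 ± 1.46 (SE; limma unadjusted p = 0.103, adjusted p = 0.941). Idi1 differed by -0.78 ± 1.197 (SE; limma adjusted p = 0.995). Having 2 of 8 genes without overlap, both lower, is set against 9.32% of tested genes in either direction and 6.03% lower. Without Lag3-deficient islet library 2, where Hmgcs1 was at 3.08 CPM, its difference was -1.31 (limma adjusted p = 1), and without all 3 libraries that skip whole numbers it was -1.33 (limma adjusted p = 0.921).

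For the other genes the differences between Lag3-deficient and Wt islet Tregs were within the spread of libraries. They were 0.56 ± 0.81 for Fdps, -1.11 ± 0.90 for Fdft1, 0.95 ± 1.40 for Sqle, -0.56 ± 0.93 for Lss, -0.68 ± 1.196 for Insig1 and -0.15 ± 1.48 for Srebf2 on the log2 scale (SE, each with a limma adjusted p above the threshold). The signs for Sqle, Lss and Srebf2 turned round in at least 1 alternative setting. The median of the 8 genes was -0.62, where the median of all tested genes was -0.22 with TMM factors and -0.03 with median-of-ratios factors. Exocrine markers had lower values in the Lag3-deficient islet libraries too (12 of 12 tested genes negative, median -2.74). Of 28 proliferation genes 20 were negative (median -0.44), where 6563 of all 10868 tested genes were negative. No gene of the 2 lists passed the test, and the part of these lists in the difference was not tested.

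**Figure D2:**
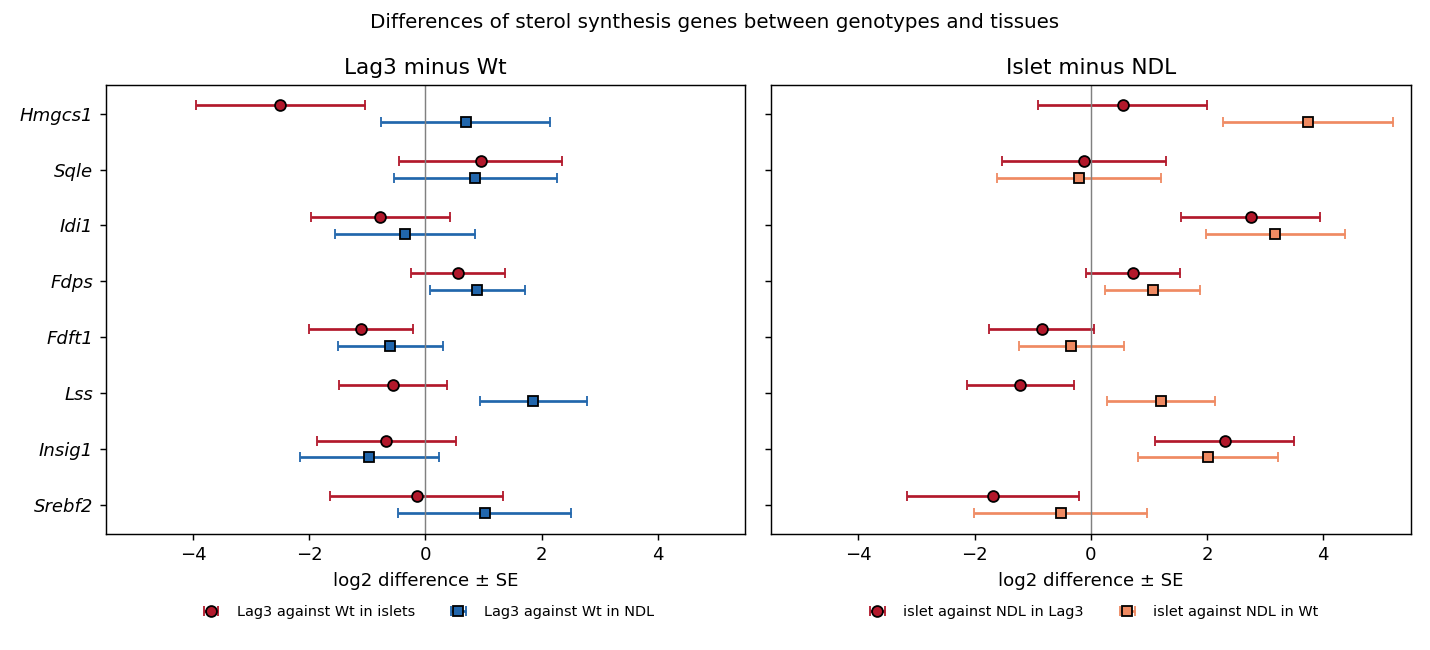
Log2 difference on the log2(CPM + 1) scale with its SE (x axis) of each gene (y axis), for Lag3-deficient against Wt Tregs in islets and in NDL, and for islet against NDL Tregs in each genotype. Between islet and NDL, Hmgcs1, Idi1 and Insig1 lie at 0.55, 2.75 and 2.31 in Lag3-deficient Tregs and at 3.73, 3.17 and 2.02 in Wt Tregs, and no difference passed the test.

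In NDL, the comparison of Lag3-deficient with Wt Tregs likewise gave 0 of 8 genes passing (0% of tested genes) and 0 of 8 at an unadjusted p under 0.05 (2.72% of tested genes). Lss was the only one of the 8 whose groups did not overlap, higher in Lag3-deficient NDL Tregs by 1.86 ± 0.93 on the log2(CPM + 1) scale (SE; limma unadjusted p = 0.0592, adjusted p = 1), against 7.53% of tested genes without overlap and 3.89% higher. Lss rests on few reads, since the Wt NDL libraries held no more than 3 rescaled counts. Its fitted difference also depends on the pseudocount of 1 CPM. Lag3-deficient NDL library 1b and Wt NDL library 2 both held 3 rescaled counts of Lss (0.225 and 0.182 CPM). The groups were thus tied there before scaling, and only the library scaling kept them from overlapping. Averaged over both tissues, 0 of 8 genes passed between Lag3-deficient and Wt Tregs (0% of tested genes), with 0 of 8 at an unadjusted p under 0.05 (3.68% of tested genes).

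Whether the genotype difference was itself unlike in the 2 tissues was tested by an interaction term. Again 0 of 8 genes passed (0% of tested genes), and 0 of 8 were under an unadjusted p of 0.05 (4.02% of tested genes). The term was largest in size for Hmgcs1, at -3.19 ± 2.06, and next for Lss, at -2.42 ± 1.31 (SE, limma adjusted p = 1 for each). The Hmgcs1 difference of -2.50 in islets, against 0.69 in NDL, is thus not shown to differ between the tissues.

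Across the 12 libraries the genes did not move as 1 block. Idi1 and Insig1 were the most alike, with Pearson r = 0.95 and Spearman rho = 0.85 on log2(CPM + 1) values, r = 0.93 after group means were removed, and r = 0.82 without Lag3-deficient NDL library 1b and Wt NDL library 2, which lay farthest from the median of Idi1. Hmgcs1 correlated with Idi1 at r = 0.78 (rho = 0.83, and r = 0.73 without Lag3-deficient NDL library 1b and Wt NDL library 1b) and with Insig1 at r = 0.75 (rho = 0.65, and r = 0.68 without the same 2 libraries). These were the 3 of 28 pairs above 0.7, and 14 of the 28 pairs were below 0. Fdps and Fdft1, which make and use farnesyl diphosphate, ran opposite to each other, with r = -0.80, rho = -0.81, r = -0.76 after group means were removed and r = -0.79 without Lag3-deficient islet library 2 and Wt NDL library 2. Srebf2 had r = 0.31 to Hmgcs1, -0.17 to Idi1 and -0.06 to Insig1. After group means were removed these were 0.59, 0.11 and 0.29. Idi1 and Fdps had r = 0.60, which was -0.00 without Lag3-deficient NDL library 1b and Wt NDL library 2 and so rests on those libraries. All pairs share libraries and scaling, and no p is given.

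**Figure D3:**
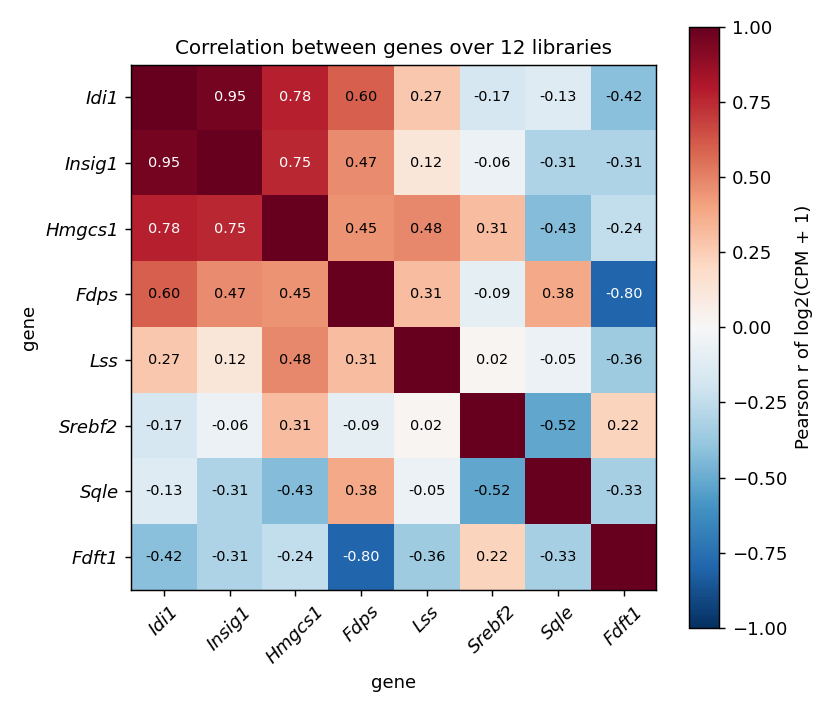
Pearson r between each pair of the 8 genes over the 12 libraries on log2(CPM + 1) values, genes on both axes, coloured by r. Hmgcs1, Idi1 and Insig1 form the block of high values (0.75 to 0.95), and the lowest value is between Fdps and Fdft1 (-0.80).

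The genes whose pattern over the 12 libraries was most like the mean of the 8 (each centred and divided by its SD) were Malat1 (r = 0.890), Ercc6l2 (r = 0.887), Camk2d (r = 0.872), Inpp5b (r = 0.867) and Nampt (r = 0.861), out of 5606 genes with an average log2(CPM + 1) of at least 4. Malat1 is a nuclear long non-coding RNA and none of the 5 is a sterol synthesis gene. The mean does not stand for all 8 genes alike. Their own r to it was 0.900 for Hmgcs1, 0.838 for Idi1, 0.766 for Insig1, 0.675 for Fdps and 0.521 for Lss. For Srebf2 it was 0.206, for Sqle -0.116 and for Fdft1 -0.357.

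The rest of the pathway was read from 7 lists with 83 genes, 76 of them tested. In none of the 7 comparisons did a gene of these lists pass the limma test. For islet against NDL averaged over genotypes, 2 of 76 were higher and 7 lower at an unadjusted p under 0.05 (11.3% of tested genes in either direction). For Lag3-deficient against Wt in islets, 0 were higher and 3 lower (5.74% of tested genes). The lists were chosen with earlier results of these data known.

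Among the other sterol synthesis enzymes, 16 of 17 genes were tested. For islet against NDL averaged over genotypes their median was 0.39, with 9 positive, against -0.04 for all tested genes. Lbr, a lamin receptor with sterol reductase activity, differed by 0.52 ± 0.30 (SE; limma adjusted p = 0.541). For Lag3-deficient against Wt islet Tregs their median was 0.04, with 9 positive. The 2 smallest p-values belonged to Ebp, the sterol isomerase, at -1.71 ± 0.85 (SE; limma adjusted p = 0.877) and 0610007P14Rik at 2.07 ± 1.14 (SE; limma adjusted p = 0.925).

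Of 10 genes of SREBP control, all tested, 4 were positive between islet and NDL Tregs, with a median of -0.31. Pgrmc1, a sterol-associated membrane protein, differed by -0.89 ± 0.55 and Scap, the escort of SREBP, by -1.08 ± 0.71 (SE; limma adjusted p = 0.577 and 0.608). In islets, Pgrmc1 differed by -1.82 ± 0.78 between Lag3-deficient and Wt Tregs (SE; limma unadjusted p = 0.0299, adjusted p = 0.85), and Srebf1, the SREBP gene best known for fatty acid synthesis, by -2.84 ± 1.45 (SE; limma adjusted p = 0.877). Srebf1 averaged 2.31 ± 3.23 CPM in Lag3-deficient islet Tregs, against 26.0 ± 30.1 CPM in Wt islet Tregs (SD, n = 3). The groups did not overlap but nearly touched, with a highest Lag3-deficient value of 6.04 CPM and a lowest Wt value of 6.35 CPM. The Wt median was 10.9 CPM and its highest library was at 60.7 CPM.

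Sterol uptake and transport (10 of 11 genes tested) had a median of -0.20 between islet and NDL Tregs. Lipa, the lysosomal acid lipase, averaged 46.2 ± 18.9 CPM in Lag3-deficient islet and 53.0 ± 11.5 CPM in Wt islet Tregs, against 86.9 ± 35.7 CPM in Lag3-deficient NDL and 116 ± 4.99 CPM in Wt NDL Tregs (SD, n = 3), a log2 difference of -1.02 ± 0.42 (SE; limma unadjusted p = 0.0264, adjusted p = 0.352). Between Lag3-deficient and Wt islet Tregs, Npc1, the lysosomal cholesterol exporter, differed by -1.64 ± 1.04 and Lrp8, an apolipoprotein E receptor, by 2.42 ± 1.54 (SE; limma adjusted p = 0.947 for each).

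The lists downstream of cholesterol and farnesyl diphosphate held the values nearest to the threshold. Abcg1, a cholesterol efflux transporter and target of the sterol sensor LXR, measured 13.6, 1.21 and 27.2 CPM in Lag3-deficient islet and 42.4, 14.01 and 30.2 CPM in Wt islet libraries. Abcg1 in NDL measured 92.1, 134 and 310 CPM in Lag3-deficient and 136, 118 and 30.9 CPM in Wt libraries. All but 1 NDL library lay above every islet library. Its log2 difference between islet and NDL was -2.79 ± 0.66 (SE; limma unadjusted p = 0.000467, adjusted p = 0.0503), and the adjusted p ranged from 0.0149 to 0.209 over 22 alternatives, so its side of the threshold turned on the setting. In the same list (9 of 12 tested), Soat1, which esterifies cholesterol, differed by -1.92 ± 0.93 (SE; limma adjusted p = 0.45), and between Lag3-deficient and Wt islet Tregs Lpcat3 differed by 2.65 ± 1.36 and Mylip by -2.15 ± 1.18 (SE; limma adjusted p = 0.877 and 0.917).

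Fnta, the shared alpha subunit of the enzymes that attach farnesyl and geranylgeranyl groups to proteins, measured 0.0754, 0.330 and 23.9 CPM in Lag3-deficient islet and 66.2, 59.9 and 52.5 CPM in Wt islet libraries. Fnta in NDL measured 151, 120 and 35.5 CPM in Lag3-deficient and 44.8, 148 and 175 CPM in Wt libraries. The 3 Lag3-deficient islet libraries were the lowest of the 12. Between islet and NDL averaged over genotypes the difference was -2.78 ± 0.74 (SE; limma adjusted p = 0.0921), with adjusted p from 0.00885 to 0.339 over 22 alternatives. The mean log2(CPM + 1) was 1.72 in islet and 6.45 in NDL Tregs lacking Lag3, against 5.91 and 6.73 in Wt Tregs. The averaged difference thus came mostly from the Lag3-deficient groups. Fnta also had the smallest p of its list between Lag3-deficient and Wt islet Tregs, at -4.20 ± 1.05 (SE; limma unadjusted p = 0.000762, adjusted p = 0.85). Over 23 alternatives the limma adjusted p of this difference ranged from 0.0275 to 0.999. The lowest came from leaving out Lag3-deficient islet library 1b, which held the highest Fnta value of its group (23.9 CPM). In the rest of the prenylation list (all 11 tested), Rce1, which trims prenylated proteins, differed by -1.46 ± 0.67 between islet and NDL (SE; limma adjusted p = 0.416), and Icmt, which methylates them, by -2.21 ± 1.38 between Lag3-deficient and Wt islet Tregs (SE; limma adjusted p = 0.947).

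In the remaining branches, all 9 genes of ubiquinone, dolichol and tRNA isoprenoid synthesis were tested. Trit1, which prenylates tRNA, differed by 1.74 ± 0.71 and Dolk, the dolichol kinase, by -1.65 ± 0.74 between islet and NDL (SE; limma adjusted p = 0.345 and 0.403). Coq2 and Nus1 differed by -1.22 ± 1.06 and 0.63 ± 0.59 between Lag3-deficient and Wt islet Tregs (SE; limma adjusted p = 0.973 for each). Of 13 fatty acid synthesis genes 11 were tested. Acsl3 and Acss2, which activate fatty acids and acetate, differed by -2.23 ± 0.76 and -2.26 ± 0.78 between islet and NDL (SE; limma adjusted p = 0.226 and 0.23). Scd1, the stearoyl-CoA desaturase, averaged 0.357 ± 0.233 CPM in Lag3-deficient islet Tregs, against 29.6 ± 34.0 CPM in Wt islet Tregs (SD, n = 3), with overlapping groups, and differed by -3.14 ± 1.30, and Fasn, the fatty acid synthase, by -1.87 ± 0.94 (SE; limma adjusted p = 0.85 and 0.877).

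**Figure D4:**
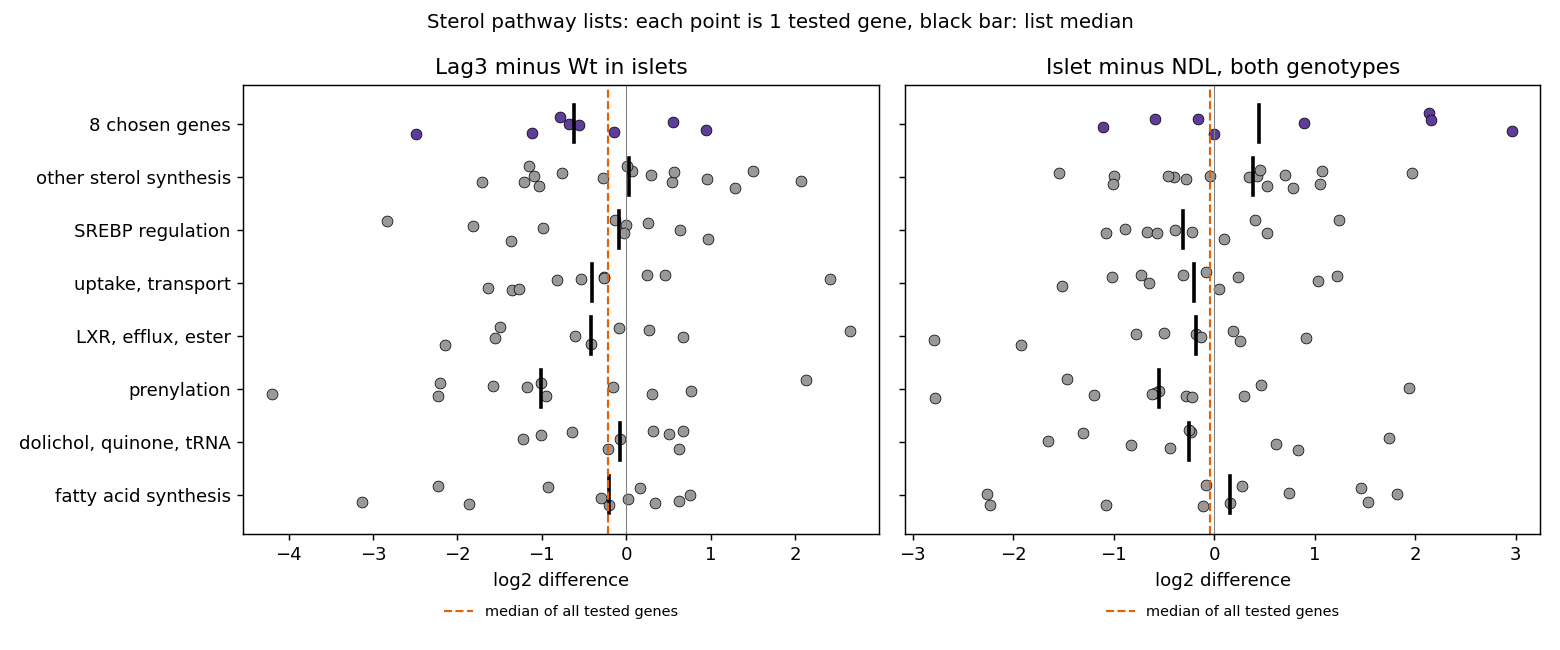
Log2 difference of each tested gene (x axis) in the 8 genes and in 7 pathway lists (y axis), for islet against NDL averaged over genotypes and for Lag3-deficient against Wt in islets; each point is a gene and black bars are medians. The 8 genes have a median of 0.45 for the tissue difference and -0.62 for the genotype difference in islets, and their points spread on both sides of 0 in each.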

How the data were processed

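RNA of Tregs was sequenced in 12 libraries, 3 in each of 4 groups given by the genotype and tissue labels. The submitters' processing notes name TopHat2, DESeq2 and the build mm10, without versions or roles. The deposited values are a signal, gene counts that the authors rescaled to a common total, in 1 table of 23361 genes, with a second deposited table of filtered values of the same kind (10317 genes) used as an alternative. They are not raw counts, so no count model was used and counting intervals are not given.

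From the first table, CPM were computed with TMM factors, and limma 3.58.1 in R 4.3.3 (mean-variance trend, 1 model with 4 groups) tested log2(CPM + 1) where 3 or more libraries had 10 rescaled counts or above. P-values were adjusted over all tested genes by Benjamini-Hochberg with a threshold of 0.05. Fold changes on this scale understate changes of low genes. The scripts were tested on simulated data. Alternatives were median-of-ratios factors, no filter, pseudocounts of 0.25 and 5 CPM, voom weights, the second table, each library left out, no libraries 1b, only the groups compared, the header number as a block, and, chosen after seeing the data, leaving out the 3 libraries that skip whole numbers and a term for the libraries 1b. Nothing in the labels says what a shared number stands for. Deviations from group means correlated at -0.0267 to 0.0497 between number-2 libraries, -0.0133 to 0.157 between libraries 1a and -0.0857 to 0.121 between libraries 1b, and in none of these sets was every pair above 0.1.

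The 8 genes, the lists and the tests were chosen with earlier results of these data known. Named genes were the 8, Lag3, Foxp3, list genes passing any test, the 2 smallest p per pathway list in 2 comparisons, and the 5 most alike in pattern. Some genes that this rule names are not reported here. Near copies were found with blastn 2.17.0 against GENCODE transcripts of GRCm38. Promoter sequences are from RefSeq.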

Additional observations from a re-analysis of the deposited data

How the results depend on the processing

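None of the 8 genes passed the test in any of the 7 comparisons under any alternative. Over comparisons and alternatives, differences of the 8 genes kept their sign 1170 times and changed it 91 times; the cause of the sign changes was not tested. The islet-minus-NDL differences of Idi1, Insig1 and Hmgcs1 averaged over genotypes, and the lower Hmgcs1 and Idi1 in Lag3-deficient islets, kept their sign in all. The original depth is not known, which limits what can be said of genes near 0, Lss above all.

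Counts of all genes passing moved as follows, with the cause not tested. For islet against NDL averaged over genotypes (100 genes) they were 40 without the filter, 151 with voom weights and 45 without libraries 1b, and 65 to 106 with 1 library left out. In Lag3-deficient Tregs (13 genes) they were 26 with median-of-ratios factors, 7 without the filter, 23 with voom weights, 31 in the second table, 24 without libraries 1b, 8 with only the groups compared and 9 to 32 with 1 library left out. In Wt (20 genes) they were 11 without the filter, 54 with voom weights, 8 without libraries 1b and 9 to 25 with 1 library left out. For Lag3-deficient against Wt in islets (0 genes) they were 0 to 16 with 1 library left out, the 16 without Lag3-deficient islet library 1b. With the replicate number of the headers as a block, 18 genes passed for islet against NDL in Wt, 14 in Lag3-deficient Tregs, 92 averaged over genotypes and 0 in the genotype comparisons and the interaction, with 0 of the 8, and the block changed no call among them. With a term for the libraries 1b, 15 genes passed in Wt, 14 in Lag3-deficient Tregs and 110 averaged over genotypes. In no set of libraries of 1 number did the deviations of every pair correlate above 0.1.

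With median-of-ratios factors sign changes were Sqle 0.043 for islet against NDL in Lag3-deficient Tregs, Lss -0.013 for islet against NDL averaged over genotypes. With a pseudocount of 0.25 CPM sign changes were Sqle -0.11 for the interaction. With a pseudocount of 5 CPM sign changes were Srebf2 0.082 for Lag3-deficient against Wt in islets, Sqle 0.19 for islet against NDL in Lag3-deficient Tregs, Lss -0.073 for islet against NDL averaged over genotypes, Insig1 -0.15 for the interaction. With voom weights sign changes were Sqle 0.088 for islet against NDL in Lag3-deficient Tregs, Sqle 0.0083 for islet against NDL averaged over genotypes. In the second deposited table sign changes were Srebf2 0.093 for Lag3-deficient against Wt in islets, Sqle 0.58 for islet against NDL in Lag3-deficient Tregs, Sqle 0.12 for islet against NDL averaged over genotypes. Without the 4 libraries 1b sign changes were Idi1 1.94 and Insig1 0.77 for Lag3-deficient against Wt in NDL, Idi1 0.59 and Insig1 0.082 for Lag3-deficient against Wt averaged over tissues, Sqle 0.49 for islet against NDL in Wt, Hmgcs1 -1.78 and Sqle 0.18 for islet against NDL in Lag3-deficient Tregs, Sqle 0.33 and Lss -0.60 for islet against NDL averaged over genotypes, Sqle -0.30 and Insig1 -1.37 for the interaction. Without the 3 libraries that skip whole numbers sign changes were Sqle -0.32 and Srebf2 1.05 for Lag3-deficient against Wt in islets, Sqle -0.81 and Idi1 0.011 for Lag3-deficient against Wt in NDL, Hmgcs1 0.34 and Sqle -0.57 for Lag3-deficient against Wt averaged over tissues, Hmgcs1 -0.13, Fdps -0.23 and Fdft1 0.63 for islet against NDL in Lag3-deficient Tregs, Fdft1 0.19 and Lss -0.30 for islet against NDL averaged over genotypes, Fdft1 0.87 and Insig1 -0.059 for the interaction.

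With 1 library left out, the differences that changed sign in some fit ranged as follows. For Lag3-deficient against Wt averaged over tissues, Srebf2 -0.20 to 1.06 and Idi1 -1.24 to 0.26. For islet against NDL in Lag3-deficient Tregs, Hmgcs1 -1.19 to 1.67 and Sqle -1.42 to 1.60. For islet against NDL averaged over genotypes, Sqle -0.82 to 0.70 and Lss -0.42 to 0.45. For the interaction, Insig1 -1.11 to 1.36, Sqle -1.195 to 1.80, Fdft1 -1.29 to 0.32, Srebf2 -2.35 to 0.095, Idi1 -2.07 to 0.92 and Fdps -1.003 to 0.25. For Lag3-deficient against Wt in islets, Sqle -0.31 to 2.66, Srebf2 -1.33 to 1.07 and Lss -1.16 to 0.16. For islet against NDL in Wt, Sqle -1.22 to 0.52 and Srebf2 -1.78 to 0.27. For Lag3-deficient against Wt in NDL, Hmgcs1 -0.35 to 2.44, Fdft1 -1.43 to 0.18, Idi1 -1.70 to 1.29, Sqle -0.16 to 1.59, Insig1 -1.96 to 0.44 and Srebf2 -0.25 to 1.83.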

Other observations

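Tested genes of the lists of other sterol synthesis, SREBP control, and sterol uptake and transport were compared with the mean of the 8. The remaining pathway lists were left out of this ranking. Over the 12 libraries, the genes of those lists that ran most with the mean were Stard4, a cytosolic sterol carrier (Pearson r = 0.643), and Mvd, mevalonate diphosphate decarboxylase (r = 0.628). Those that ran most against it were Lipa (r = -0.616) and Npc2, a lysosomal cholesterol binding protein (r = -0.555). These 4 were chosen after their values were seen, the points share libraries and scaling, and no p is given.

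Npc2 averaged 298 ± 46.0 CPM in Lag3-deficient islet and 359 ± 58.0 CPM in Wt islet Tregs, against 463 ± 229 CPM in Lag3-deficient NDL and 377 ± 36.0 CPM in Wt NDL Tregs (SD, n = 3). Stard4 averaged 26.6 ± 26.1 CPM in Lag3-deficient islet and 35.6 ± 20.8 CPM in Wt islet Tregs, against 17.2 ± 24.7 CPM in Lag3-deficient NDL and 12.1 ± 7.73 CPM in Wt NDL Tregs (SD, n = 3). Mvd averaged 3.89 ± 6.61 CPM in Lag3-deficient islet and 2.66 ± 2.44 CPM in Wt islet Tregs, against 9.73 ± 9.46 CPM in Lag3-deficient NDL and 16.2 ± 27.2 CPM in Wt NDL Tregs (SD, n = 3), so its likeness to the mean of the 8 does not lie in the tissue difference.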
